A study of Oikopleura dioica with 12 samples.

Results

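The ratio of ribosome-protected fragments (RPFs) to total RNA was examined for 14574 genes of day 6 female Oikopleura dioica in which the kinase mTOR had been inhibited with Torin 1. The genes were those with at least 100 reads over the 12 libraries of the series, out of 17212 genes in the count table, and no measure of the ratio entered that choice. The series compared whole females kept for 1.5 h in seawater with algal food and 1 μM Torin 1 with females kept in the solvent DMSO, and sequenced total RNA and RPFs from both. The 6 Torin 1 libraries were 3 of total RNA and 3 of RPFs, and the 6 DMSO libraries are used here only for side-by-side values. By the study's methods, RNA of each replicate came from a subset of the animals collected for it. A pair of libraries with the same number was thus taken to share a collection of pooled females. No genotype, strain or transgene is given in the labels.

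mTOR is a nutrient-sensing kinase that promotes cap-dependent translation, partly by phosphorylating the 4E-BP repressors of the cap-binding factor eIF4E and partly through the S6 kinases. In vertebrates the mRNAs most sensitive to mTOR inhibition begin with a terminal oligopyrimidine (TOP) motif, and most of them encode ribosomal proteins and translation factors. O. dioica, a planktonic tunicate, places a short spliced leader on many of its mRNAs by trans-splicing and transcribes a large share of its genes as operons. An RPF is the piece of an mRNA covered by a ribosome, so the ratio of RPFs to RNA of a gene, its translational efficiency (TE), is read as ribosome density per mRNA and needs no correction for gene length.

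The Torin 1 libraries differed widely in depth. The 3 RNA libraries held 8476912, 7520819 and 26818704 counts and the 3 RPF libraries held 718559, 582868 and 91549. In RPF replicate 3, 40.4% of the genes had no count, and a count of 0 there allowed up to 32.8 RPM (counts of a gene per 1000000 counts of its library), for counting error only. RNA replicates 2 and 3 stood apart. RNA Torin 1 replicate 2 and RNA DMSO replicate 2 had a chi-square of 1.07 per gene, close to the sampling noise of a single library, whereas RNA Torin 1 replicates 1 and 2 had 253. RNA Torin 1 replicate 3 had a correlation across genes of 0.95 with RPF DMSO replicate 1 and of at most 0.81 with every other library, and genes described as axonemal or sperm proteins, which mark ciliated cells and the male germ line, summed to 51337 RPM in it against 3795 and 915 RPM in RNA Torin 1 replicates 1 and 2. The sum over the description zona pellucida protein d, a marker of the egg coat, was between 10.9 and 154 RPM in the 6 libraries. The lowest value, in RPF replicate 3, was below the 32.8 RPM that a count of 0 allowed there. Results that RNA replicate 3 changed are therefore given with and without it.

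Across the 14574 genes the log2 ratio of RPFs to RNA in Torin 1 females had a median of −0.42, with 5% of the genes below −3.44 and 5% above 1.57. No gene passed the edgeR quasi-likelihood test with Benjamini-Hochberg adjustment, in which 0.0% were called in either direction and the smallest adjusted p was 0.16. At unadjusted p below 0.05, 417 genes (2.86%) were higher and 1342 (9.21%) were lower in RPFs. Adding the replicate number as a block called 100 genes higher (0.686%) and 6 lower (0.0412%), DESeq2 called 83 higher (0.57%) and 65 lower (0.446%), and leaving out RNA Torin 1 replicate 3 called 496 higher (3.4%) and 65 lower (0.446%). In 597 genes (4.1%) all 3 RPF values lay above all 3 RNA values, and in 2782 (19.1%) all 3 lay below. Scaling by library totals instead of TMM moved the median of all genes to −0.88, a shift of −0.46, and class values are therefore given relative to the median of all genes.

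Ribosomal protein mRNAs lay together at low ratios in the fit of all 6 libraries. All 72 had a ratio below the median of all genes, and their own median was −1.90, or −1.48 relative to all genes, with single genes between −2.79 (RPL7A) and −1.16 (RPL7L1/RPL7). At unadjusted p below 0.05, 57 of 72 were lower and 0 were higher, beside 9.21% and 2.86% of all genes. DESeq2 called 17 of them lower, out of 65 genes called lower in all, whereas the replicate block called 0. In 70 of 72 the 3 RPF values lay below the 3 RNA values, beside 19.1% of all genes, and the exceptions were RPS29 and RPL26. The genes of this list were chosen by orthology to human TOP mRNAs, and not by their values. They were also abundant, and among the 3644 genes with the highest RNA level 23.02% had RPF values below all RNA values.

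The 46 large-subunit genes and the 26 small-subunit genes gave almost the same values. Summed over the large subunit, the RNA libraries held 33676, 42571 and 21533 RPM in replicates 1, 2 and 3, and the RPF libraries held 6061, 4306 and 8968 RPM. For the small subunit the sums were 20623, 26733 and 13641 RPM in RNA and 3625, 2755 and 5778 RPM in RPFs. Every RPF library was thus below every RNA library in both subunits, and the groups did not overlap. The ratio of summed RPFs to summed RNA, scaled by TMM, was 0.31, 0.12 and 0.56 in pairs 1, 2 and 3 over all 72 genes, a mean log2 of −1.88 ± 1.15 (SD, n = 3 pairs). Pair 2 had the lowest ratio and pair 3, whose RPF library was the shallowest, the highest. Relative to the median of all genes in the same pair, the median of the 72 genes was −1.45 in pair 1, −2.78 in pair 2 and 0.38 in pair 3. In pair 3 it thus lay above that of all genes, of which 40.4% had no RPF count in that library. Without RNA Torin 1 replicate 3 the median relative to all genes was −1.73, and with the replicate block −1.61.

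**Figure D1:**
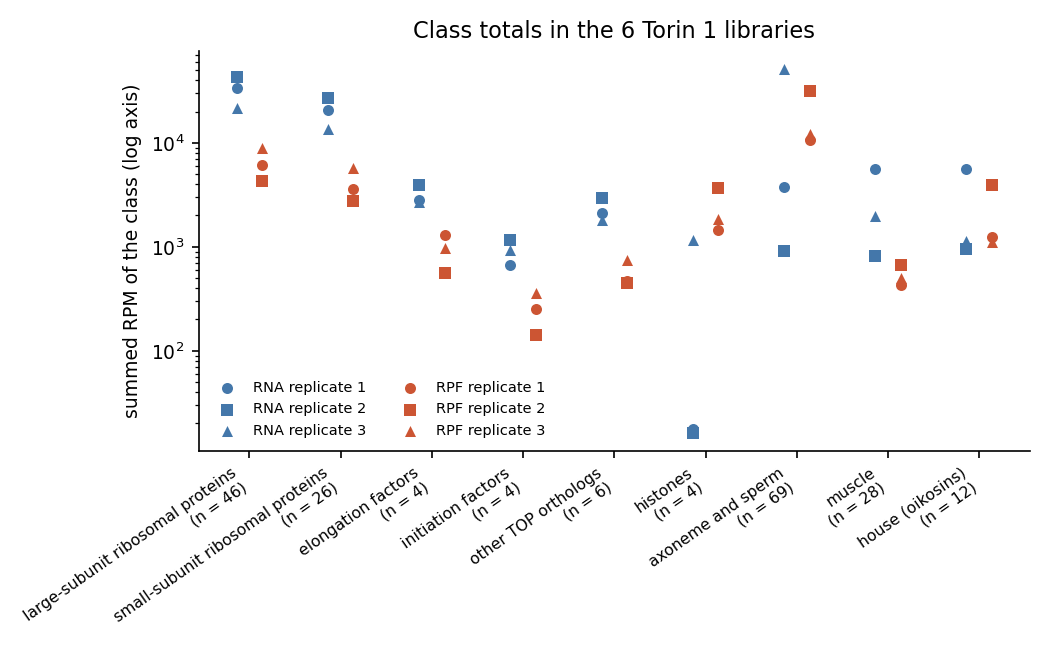
Summed RPM (log axis) of 9 gene classes in each of the 6 Torin 1 libraries, RNA in blue and RPFs in red, with the symbol giving the replicate and n the genes in a class. Both ribosomal protein classes have all 3 RPF libraries below all 3 RNA libraries, whereas RNA replicate 3 stands far above the other RNA libraries for histones and for axoneme and sperm genes.

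Among single ribosomal protein genes, RPL19, a large-subunit protein, had the most reads. It held 1980, 2581 and 1369 RPM in RNA and 253, 173 and 437 RPM in RPFs, a log2 ratio of −2.34 ± 0.83 (SE, edgeR adjusted p = 0.36). RPL3, whose product lies near the catalytic centre of the large subunit, held 1918, 2364 and 1444 RPM in RNA and 320, 166.4 and 557 RPM in RPFs. RPLP0, the base of the ribosomal stalk, held 1501, 1765 and 890 RPM in RNA against 256, 137 and 360 RPM in RPFs. For each of the 3 genes the highest RPF library was still below the lowest RNA library. RPL8 had a log2 ratio of −2.04 ± 0.80 (SE), and its RPF values of 249, 130 and 350 RPM lay below RNA values of 1404, 1875 and 820 RPM. In the small subunit, RPS3A had 1594, 2151 and 1156 RPM in RNA and 239, 195.6 and 492 RPM in RPFs. RPS6, the ribosomal protein that S6 kinases phosphorylate, had 1429, 1982 and 1013 RPM in RNA and 200, 120 and 470 RPM in RPFs, a log2 ratio of −2.05 ± 0.84. The ratio of RPS23, a protein of the decoding centre, was −2.04 ± 0.77, and that of RPS27A, which is made as a fusion with ubiquitin, was −1.45 ± 0.76, on the log2 scale with the SE.

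The 3 ribosomal protein genes called lower without RNA Torin 1 replicate 3 were RPS12, RPL39 and RPL27. RPL39, one of the smallest ribosomal proteins, held 734, 839 and 418 RPM in RNA and 80.7, 48.04 and 109 RPM in RPFs, with adjusted p = 0.031 in that edgeR fit. RPL27, a downstream gene of a predicted operon, held 418, 475 and 279 RPM in RNA and 32.0, 39.5 and 76.5 RPM in RPFs, with adjusted p = 0.030. RPS12 rested on 37, 7 and 6 RPF counts. Of the 8 ribosomal protein genes described above, DESeq2 called RPL19 and RPS23 lower (adjusted p = 0.022 and 0.039). By the study's annotation 65 of the 72 genes carry the spliced leader and 7, RPL27 among them, do not. The 65 had a median log2 ratio of −1.91 and the 7 of −1.82, and in all 7 the RPF values lay below the RNA values, as they did in 63 of the 65. The difference between both sets was not tested.

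Translation factors of the same orthology lists also lay low, with fewer of them past the unadjusted threshold. The 4 elongation factor genes had a median of −1.60 relative to all genes and the 4 initiation factor genes −1.10, with 2 of 4 and 1 of 4 lower at unadjusted p below 0.05 and 0 higher, beside 9.21% and 2.86% of all genes. Not taken relative to all genes, the median log2 ratio of the 4 elongation factor genes was −2.02. The ratio of 1 of these genes, with no RPF read, was set by the model. On the same scale the other 3 had a median of −1.53. EEF2, which moves the ribosome along the mRNA, held 2089, 3560 and 2251 RPM in RNA and 1124, 477 and 863 RPM in RPFs, a log2 ratio of −1.23 ± 0.84 (SE). EEF1A1, which delivers aminoacyl-tRNA, held 668, 352 and 378 RPM in RNA and 167, 77.2 and 87.4 RPM in RPFs. In both genes every RPF library was below every RNA library. One of the 2 genes annotated as EEF1B2, the exchange factor of EEF1A1, had 43.8, 50.8 and 51.5 RPM in RNA and 4.18, 3.43 and 21.8 RPM in RPFs, with a log2 ratio of −2.51 ± 0.86. The other was a low gene at 1.18, 2.26 and 3.06 RPM in RNA and had no RPF read, which sets no useful bound at this depth.

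Of the initiation factors, EIF4B, which stimulates the helicase eIF4A and is a target of S6 kinases in mammals, had the lowest ratio at −1.78 ± 0.68 (SE), with 150, 270 and 172 RPM in RNA and 47.3, 29.2 and 54.6 RPM in RPFs. The eIF3 subunits EIF3A, EIF3H and EIF3E had log2 ratios of −1.52 ± 0.72, −1.53 ± 0.72 and −1.14 ± 0.71. Other TOP orthologs gave a median of −1.29 relative to all genes over 6 genes, 3 of them lower at unadjusted p below 0.05. TPT1, the translationally controlled tumour protein, held 482, 736 and 440 RPM in RNA and 87.7, 46.3 and 164 RPM in RPFs, with no overlap. RACK1, a scaffold protein of the small subunit, held 933, 1114 and 438 RPM in RNA and 121, 84.1 and 306 RPM in RPFs. NAP1L1, a histone chaperone, had a log2 ratio of −2.02 ± 0.72, the nucleolar chaperone NPM1 −1.56 ± 0.78 and the poly(A)-binding protein PABPC1 −1.30 ± 0.71. VIM, an intermediate filament gene, was at −0.09 ± 0.85 and differed from the rest of its list in that RPF replicates 1 and 2 (57.1 and 159.6 RPM) were above RNA replicates 2 and 3 (44.4 and 45.8 RPM). The 2 genes listed as S6 kinases by their symbols did not share a value. RPS6KB1 had 36.8, 101 and 77.8 RPM in RNA and 13.9, 10.3 and 21.8 RPM in RPFs (log2 ratio −1.97 ± 0.74), whereas RPS6KA1 had 223.9, 317 and 208 RPM in RNA and 276, 164.7 and 131 RPM in RPFs (0.08 ± 0.68), a value that turned negative with library totals (−0.38). None of these factor and S6 kinase genes was called at an adjusted p under 0.05, by edgeR with or without the block, or by DESeq2.

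Genes in predicted operons had lower ratios than genes outside them in the fit of all 6 libraries. By medians within single pairs this order was present in pair 2 alone, whereas the class sums given below kept it in pair 3 as well. Operons were predicted as runs of neighbours on one strand with gaps of at most 60 bp, which placed 3404 genes downstream in an operon, 1910 first and 9211 outside. The median log2 ratio was −0.70 for downstream genes, −0.64 for first genes and −0.24 for genes outside operons, or −0.28, −0.22 and 0.18 relative to all genes. At unadjusted p below 0.05, 531 downstream genes (15.6%), 272 first genes (14.2%) and 538 genes outside (5.84%) were lower, beside 9.21% of all. Counts in the other direction were 42 (1.23%), 28 (1.47%) and 342 (3.71%), beside 2.86% of all. Of the 1342 lower genes, counted where a gene model exists, 59.9% were in operons, compared with 36.6% of all genes with a model, and of the 417 higher genes 83.0% were outside operons. Within single pairs, downstream genes and genes outside operons had medians of 0.12 and −0.08 relative to all genes in pair 1. The medians were −0.77 and 0.54 in pair 2 and 0.28 and −0.32 in pair 3, so their order was reversed in pairs 1 and 3. In RPF replicate 3, 40.4% of the genes had no count. From the lowest to the highest quartile of RNA level, pair 3 medians relative to all genes were −1.48, −2.56, 0.58 and 0.62. Genes outside operons had less RNA, with a median of 630 counts against 1686 downstream. Pair 2 is the one whose RNA library was nearly that of DMSO replicate 2. The order of the fit also turned when both RNA libraries in doubt, Torin 1 replicates 2 and 3, were left out: downstream genes were then at 0.11, first genes at 0.11 and genes outside operons at −0.07 relative to all genes. It kept its direction when either of them was left out alone, with −0.11 and 0.07 for downstream genes and genes outside operons without replicate 2.

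The size of the operon went with the ratio only weakly. Genes of operons of 2, of 3 to 4 and of 5 or more had medians of −0.22, −0.23 and −0.37 relative to all genes, and RPFs were lower at unadjusted p below 0.05 in 13.2%, 15.2% and 18.8% of them. The order was not tested. Of the 88 genes in the orthology lists 56 are downstream in an operon, and without these the downstream median was still −0.26 relative to all genes. The ratio of summed RPFs to summed RNA of downstream genes was 1.28, 0.72 and 0.67 in pairs 1, 2 and 3, so that pair 1 lay on the other side of 1. Genes outside operons gave 1.38, 1.56 and 1.86, and without GSOIDG00008149001, which held 42.7% of the counts of RPF replicate 3, 1.18, 1.51 and 0.82. The class is a prediction from gene spacing. It does not give the presence of the spliced leader, whose status was held for part of the genes only.

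**Figure D2:**
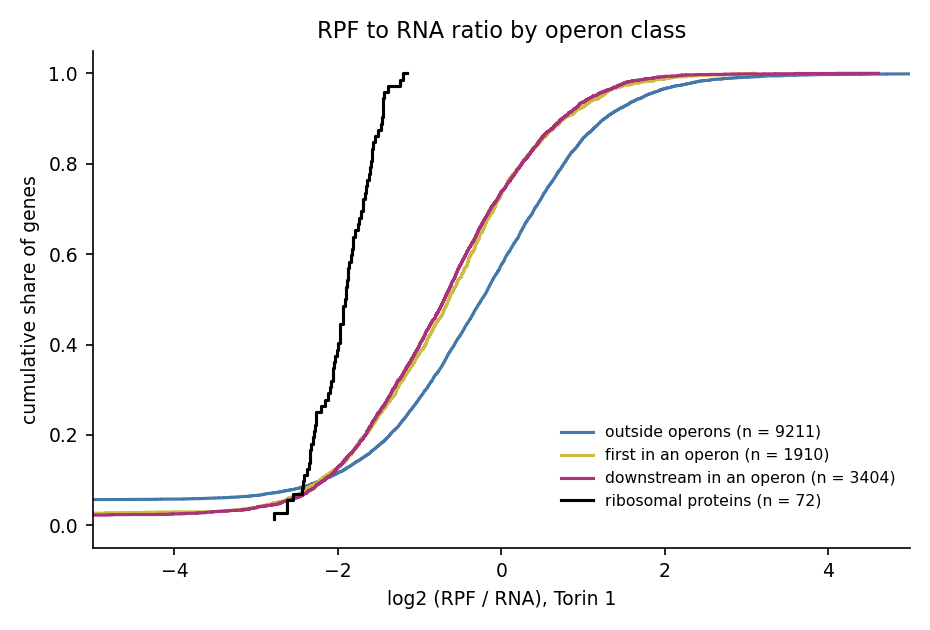
Cumulative share of genes (vertical axis) against the log2 ratio of RPFs to RNA in Torin 1 females (horizontal axis, drawn from −5 to 5) for 3 operon classes and for ribosomal proteins. The curves of first and downstream genes nearly coincide and over most of the range lie to the left of the curve of genes outside operons. Their medians are −0.64, −0.70 and −0.24. This order was reversed in the medians within pairs 1 and 3 and without RNA Torin 1 replicates 2 and 3. It was kept in the class sums of pair 3. The 72 ribosomal proteins all lie between −2.79 and −1.16.

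At the extreme low end stood genes with RNA reads and no RPF read. There were 656 such genes (4.50%), most of them with so little RNA that the shallow RPF libraries could not have shown them. With a floor of 3 counts over the 3 RPF libraries, or 2.15 RPM, 101 of the 656 were at least 2-fold lower in RPFs and 14 at least 5-fold lower. These bounds and those below rest on library totals, on which the median log2 ratio of all genes was already −0.88. A bound near 2-fold is therefore little beyond the median gene. Cyclin D3, a regulatory subunit of G1 cyclin-dependent kinases (GSOIDG00004458001, scaffold 16, 469957 to 471266, plus strand, 4 coding exons, in a predicted operon of 8 genes), held 31.3, 47.3 and 25.8 RPM in RNA and 0 in RPFs, at least 16.2-fold lower. The homolog of Moloney leukemia virus 10, an RNA helicase of the MOV10 family (GSOIDG00013236001, scaffold 5, 346642 to 349652, plus strand, 4 coding exons, outside operons), held 31.4, 21.9 and 15.6 RPM and 0 in RPFs, at least 10.7-fold lower. These 2 were lower under the replicate block (adjusted p = 0.011 and 0.038) and without RNA Torin 1 replicate 3 (adjusted p = 0.00062 and 0.0053), but not in the unblocked edgeR fit with all 6 libraries (0.31 and 0.36). DESeq2 gave cyclin D3 an adjusted p of 0.015.

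Further described genes of this kind, with no RPF read and an unadjusted p under 0.05, covered several functions and much smaller RNA levels. A gene described as liver X receptor, a nuclear receptor of sterols, was at 13.1, 16.9 and 16.2 RPM in RNA and at least 7.14-fold lower in RPFs. An endonuclease/exonuclease/phosphatase family protein was at least 5.78-fold lower. Both (adjusted p = 0.039 for each) were also called by edgeR without RNA replicate 3. For a G protein alpha subunit, a protein kinase, a relative of the feline leukemia virus subgroup C receptor, a receptor-associated protein of 43 kD, calsequestrin 2 (the calcium store of muscle), a jumonji-domain transcription factor, an insulin-like growth factor binding protein acid labile subunit, the translocation associated membrane protein 1 and a homolog of C17orf90, the bounds ran from 4.89-fold down to 2.46-fold. Descriptions exist here mostly for genes that the study had ranked by the drop of their efficiency in Torin 1, so a low ratio is partly built into this set. In the remaining described gene, a mitochondrial carnitine/acylcarnitine carrier, the RNA was 3.77 and 3.99 RPM in replicates 1 and 2 and 63.8 RPM in replicate 3, and its bound of 11.1-fold rests on that library. The same held for both genes named by identifier alone, GSOIDG00000029001 (0.83, 0.27 and 88.4 RPM) and GSOIDG00007171001 (1.53, 0.40 and 55.8 RPM).

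Besides cyclin D3 and the MOV10 relative, the replicate block called 4 genes without a description lower, all with RPF reads, and these were chosen after their values were seen. GSOIDG00015361001 (scaffold 64, 1032 to 1684, plus strand) held 241, 119 and 120 RPM in RNA and 6.96, 3.43 and 10.9 RPM in RPFs, with adjusted p = 0.0094. Its neighbour GSOIDG00015362001 (scaffold 64, 1947 to 2796, plus strand) held 457, 38.6 and 44.8 RPM in RNA and 4.18, 1.72 and 0 RPM in RPFs, with adjusted p = 0.0044. GSOIDG00008790001 and GSOIDG00008791001 on scaffold 3 face each other, have the same coding length of 138 bases and may share reads, so their separate values are uncertain. They held 127, 41.9 and 29.9 RPM and 178, 34.2 and 44.4 RPM in RNA, and 2 and 3 RPF counts in all. All 6 of the genes called lower under the block were also called lower without RNA replicate 3.

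The high end was led by genes without a description. GSOIDG00008149001 (scaffold 24, 453168 to 456493, plus strand, 6 coding exons) held 205, 40.6 and 33.7 RPM in RNA and 72242, 21233 and 427410 RPM in RPFs, or 7.22%, 2.12% and 42.7% of the RPF counts, and a log2 ratio of 11.48 ± 2.71 (SE). GSOIDG00007125001, which has no gene model in the annotation, held 3018, 25.8 and 16.8 RPM in RNA and 211683, 528 and 5374 RPM in RPFs, so that RPF replicate 1 decided its level and RNA replicate 1 was above RPF replicate 2. Neither was called with the block (adjusted p = 0.22 and 0.33), while GSOIDG00008149001 was called higher without RNA replicate 3 (0.0046) and by DESeq2 (1.5e-21). GSOIDG00017758001 (scaffold 9, 947208 to 948412, minus strand, 4 coding exons) had 0, 0 and 1.27 RPM in RNA and 111, 115 and 21.8 RPM in RPFs, and it was called higher both under the block (adjusted p = 3.06e-08) and without RNA replicate 3 (2.31e-11). Of the 100 genes called higher with the block, 85 lie outside operons, or 85.9% of those with a gene model, beside 63.4% of all genes with a model. The 11 with a single coding exon are 3.42% of the 322 such genes outside operons, beside 0.686% of all genes called. Without RNA Torin 1 replicate 3, 96 of the 100 were also called, which are 19.4% of the genes called higher in that fit.

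Of the 100 genes called higher with the block 9 carry a description, beside 980 of all 14574 genes. The 9 were chosen after their values were seen. They were 3 histones, chymotrypsin B and another serine protease of the transmembrane type, kinesin family member 23 (a motor of the spindle midzone), a HORMA domain protein (a family of meiotic chromosome proteins), a heat shock transcription factor of the Y-linked type and a pentapeptide repeat protein. Chymotrypsin B, a secreted digestive protease, held 2.24, 1.73 and 205 RPM in RNA and 44.5, 496 and 229 RPM in RPFs. Kinesin family member 23 held 4.48, 2.53 and 333 RPM in RNA and 141, 650 and 240 RPM in RPFs. In all 9 the RNA level of replicate 3 was far above that of replicates 1 and 2, and in the unblocked fit with all 6 libraries 8 of the 9 had an unadjusted p above 0.05. The exception was H2A histone member X.

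**Figure D3:**
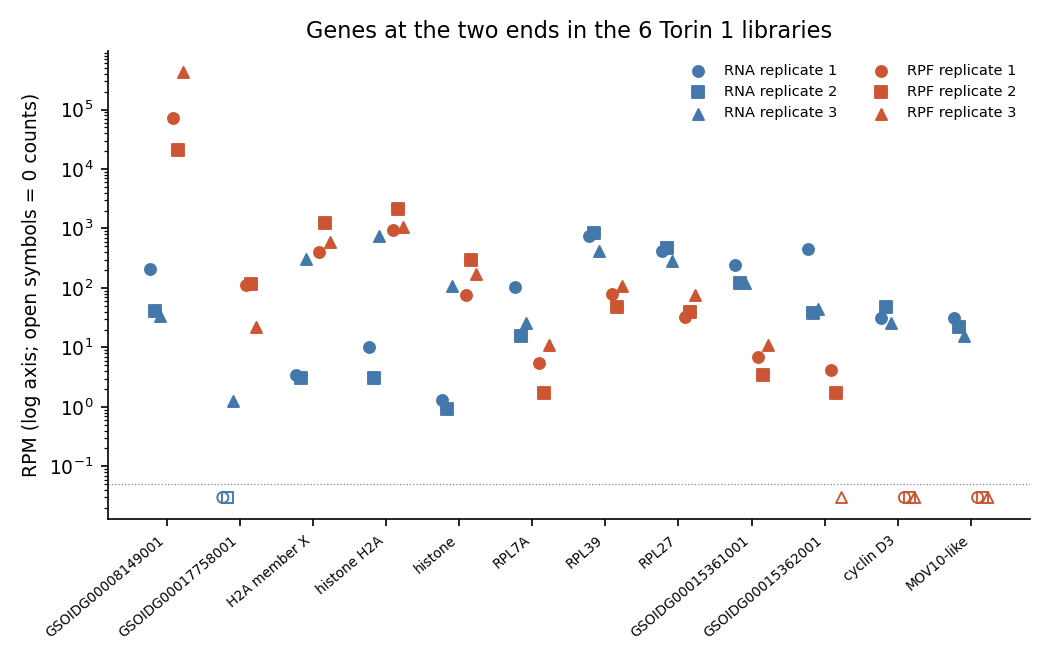
RPM (log axis) of 12 genes in the 3 RNA libraries (blue) and the 3 RPF libraries (red) of Torin 1 females, with the symbol giving the replicate and open symbols below the dotted line standing for 0 counts. The 3 histones have 1 RNA library, replicate 3, near the RPF values, whereas RPL39 and RPL27 have all RPF libraries below all RNA libraries and cyclin D3 and the MOV10-like gene have no RPF read.

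Histones were the described class with the highest ratio, though it turned on 1 RNA library. Their 4 genes summed to 17.8, 16.4 and 1172 RPM in RNA and to 1461, 3658 and 1835 RPM in RPFs, so that no RNA library reached the RPF libraries. The median log2 ratio was 3.15 relative to all genes with all 6 libraries and 8.41 without RNA Torin 1 replicate 3. Histone H2A (GSOIDG00010649001, 1 coding exon, scaffold 34) held 10.3, 3.06 and 753 RPM in RNA and 957, 2105 and 1070 RPM in RPFs, with adjusted p = 0.025 under the block. H2A histone member X (GSOIDG00006499001, 1 coding exon, scaffold 20) held 3.42, 3.06 and 308 RPM in RNA and 395, 1251 and 590 RPM in RPFs, with adjusted p = 0.0063 under the block. A gene described only as histone (GSOIDG00016664001) held 1.30, 0.93 and 106 RPM in RNA and 75.2, 292 and 175 RPM in RPFs. Histone genes often exist in near-identical copies, and how reads with several positions were counted is not given in the sources used here, so single histone values are uncertain.

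Genes of the axoneme and of sperm, the motor apparatus of cilia and flagella, showed how far 1 library could move a class. Their 69 genes had a median of −0.10 relative to all genes with all libraries and of 3.35 without RNA Torin 1 replicate 3. At unadjusted p below 0.05, 0 were higher and 2 lower with all libraries (2.86% and 9.21% of all genes), whereas 38 were called higher at an adjusted p under 0.05 without that library, beside 3.4% of all genes. Summed over the list, RNA held 3795, 915 and 51337 RPM and RPFs held 10701, 31808 and 12190 RPM. The beta heavy chain of outer-arm dynein held 180, 42.3 and 3024 RPM in RNA and 2555, 8005 and 1540 RPM in RPFs, a log2 ratio of 2.26 ± 1.35 (SE). The coiled-coil domain containing 39 gene, needed for axoneme assembly in vertebrates, held 60.9, 13.3 and 2253 RPM in RNA and 267, 487 and 317 RPM in RPFs, and a WD repeat domain 65-like gene 98.4, 19.3 and 2343 RPM against 234, 655 and 404 RPM. In all 3 genes RNA replicates 1 and 2 were below, and in the latter 2 RNA replicate 3 was above, every RPF library. Their ratios are therefore not given a direction.

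**Figure D4:**
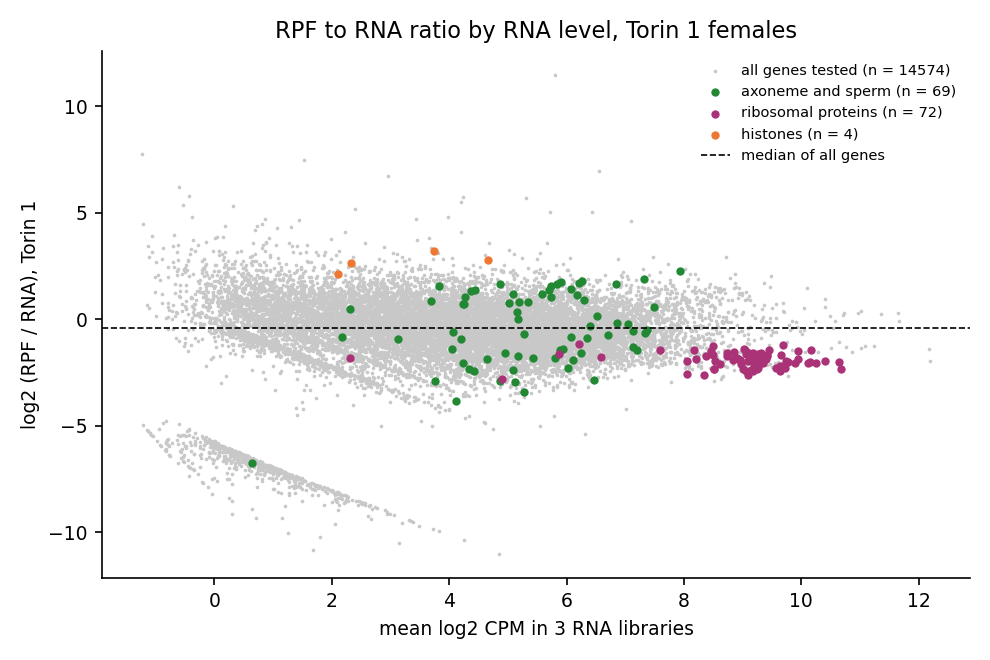
Log2 ratio of RPFs to RNA (vertical axis) against the mean log2 scaled count in the 3 RNA libraries (horizontal axis) for 14574 genes in Torin 1 females, with 3 classes in colour and the median of all genes (−0.42) as a dashed line. The 72 ribosomal proteins form a narrow band below the median, the 4 histones lie above it, the 69 axoneme and sperm genes spread over both sides, and the separate cloud at the lower left is made of genes with no RPF read, whose ratio depends on the model and is no measure of size.

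Muscle genes lay low in the fit of all 6 libraries, at a median of −1.32 relative to all genes. At unadjusted p below 0.05, 11 of 28 were lower and 1 higher, beside 9.21% and 2.86% of all genes. Their RNA summed to 5571, 823 and 1969 RPM and their RPFs to 430, 671 and 502 RPM, so that the groups did not overlap. Scaled by TMM, the summed ratios were 0.13, 0.92 and 0.34 in pairs 1, 2 and 3. The medians relative to all genes in the same pair were −2.22, 0.21 and −3.07, so pair 2 lay above all genes. With libraries left out, the class median ran from −1.69 to −0.15. The muscle list comes from the study's ranking by drop in efficiency in Torin 1, so a low ratio is partly built into it. Both genes described as embryonic muscle myosin heavy chain, the motor of the thick filament, had every RPF library below every RNA library. GSOIDG00017172001 held 1470, 219 and 307 RPM in RNA and 61.2, 70.3 and 54.6 RPM in RPFs (log2 ratio −2.82 ± 0.83, SE), and GSOIDG00016002001 held 1391, 231 and 247 RPM and 51.5, 30.9 and 87.4 RPM (−2.91 ± 0.88). They were called lower without RNA Torin 1 replicate 3 (adjusted p = 0.013 and 0.0085) and not by edgeR with all 6 libraries (both 0.36), while DESeq2 gave the first an adjusted p of 0.042. Troponin C, the calcium sensor of the thin filament, was high in RNA replicate 3 alone (12.98, 6.78 and 834 RPM) and at 16.7, 17.2 and 164 RPM in RPFs. The 1 higher gene, GSOIDG00016817001, carries a description from a structure of rigor crossbridges and held 40.6, 6.78 and 7.57 RPM in RNA and 66.8, 103 and 10.9 RPM in RPFs. As tissue was not separated, fewer muscle cells and less RNA per cell cannot be told apart between libraries.

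Oikosins, the proteins of the filter-feeding house, were the other described class above the median of all genes with all 6 libraries, by 0.67. With libraries left out this value ran from −0.47 to 1.60. Their 12 genes summed to 5593, 946 and 1136 RPM in RNA and to 1251, 3886 and 1103 RPM in RPFs, which overlapped, and 0 were higher or lower at unadjusted p below 0.05. The most read one, oikosin-like, held 2811, 436 and 572 RPM in RNA and 720, 2791 and 765 RPM in RPFs. Oikosin 6d and oikosin 4a had log2 ratios of −1.15 ± 0.86 and 1.11 ± 0.73 (SE). With all 6 libraries, secreted and membrane classes lay within 0.62 below the median of all genes. These were digestive enzymes (29 genes, −0.23), extracellular matrix and adhesion (31 genes, −0.13), channels and receptors (49 genes, −0.19), transporters (38 genes, −0.36) and sulfo- and glycosyltransferases (38 genes, −0.62). With libraries left out, each class fell on both sides of that median. In the same order, the values ran from −0.56 to 0.72, −0.73 to 0.91, −0.96 to 0.55, −1.26 to 0.40 and −1.21 to 0.14. Between 0 and 1 gene in each of these 5 classes was higher and between 2 and 5 were lower at unadjusted p below 0.05. The lower ones made up 5.26% to 13.8% of a class, beside 9.21% of all genes. Of the channel and receptor genes 6, and of the transporters 5, had no RPF read, and their fitted ratios enter these medians. All of these descriptions come from the same study list of genes with a drop in efficiency.

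Within these classes the most read genes differed widely. Cathepsin B, a lysosomal protease, held 575, 175 and 84.6 RPM in RNA and 27.8, 54.9 and 43.7 RPM in RPFs, a log2 ratio of −2.18 ± 0.77 (SE). An N-acetylgalactosaminyltransferase, which starts O-linked glycans, had −2.75 ± 0.79 and was called lower without RNA replicate 3 (adjusted p = 0.049), and an organic cation transporter had −2.16 ± 0.83. The 2 silk proteins went opposite ways, at −1.72 ± 0.77 and 2.08 ± 0.87. A zymogen granule membrane glycoprotein was at 1.23 ± 0.81, a shaker-related potassium channel at −0.05 ± 0.69, a sugar transporter at −0.36 ± 0.73 and a xylosylprotein galactosyltransferase at 0.05 ± 0.77. A member of the solute carrier family (2.08 ± 1.22), both hyperpolarization-activated channels (1.11 ± 1.31 and 0.66 ± 1.02), the integrin-like protein (0.17 ± 1.17) and a mannosyl-glycoprotein N-acetylglucosaminyltransferase (−1.34 ± 1.38) shared with the axoneme genes an RNA level in replicate 3 above that of replicates 1 and 2. Of 14 transposon proteins, 1 was lower and 0 were higher, at a median of −0.18 relative to all genes, and the most read were 2 gypsy polyproteins (−0.29 ± 0.99 and −0.53 ± 0.98) and a pol protein (−1.55 ± 0.81).

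Classes by gene structure had medians close to that of all genes. From the shortest to the longest quartile of coding lengths the medians relative to all genes were 0.05, 0.07, −0.04 and −0.08, and genes with no untranslated region in the model were at 0.07. Over the quartiles of the share of untranslated sequence the medians were −0.12, 0.05, 0.06 and −0.06. The 322 genes outside operons with a single coding exon had a median of 0.05, but 29 of them (9.01%) were higher and 19 (5.90%) lower at unadjusted p below 0.05, beside 2.86% and 9.21% of all genes. By RNA level the medians were 0.24, 0.10, −0.07 and −0.16 from the lowest to the highest quartile, and since RNA is the divisor of the ratio, part of that order is built in. Differences between these classes were not tested.

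Genes that the study annotated for the leader and for presence in the oocyte numbered 1998, and all of them come from the ranking by drop in efficiency, so their level is not independent of it. Within this set the 440 genes with a leader had a median of −0.90 relative to all genes and the 1558 without of −0.27, while the genes present in oocytes were at −1.08 and the 1613 absent from them at −0.25. Those lower at unadjusted p below 0.05 made up 24.5% of the genes with a leader, 8.15% of those without, 28.1% of oocyte genes and 7.87% of the others. Outside the orthology lists, genes with both a leader and oocyte presence were at −1.35. Relative to all genes in the same pair, genes with a leader had medians of −0.77, 0.08 and −2.75 in pairs 1, 2 and 3. Genes without it had −0.95, 1.42 and −2.52. Oocyte genes had −0.62, −0.81 and −3.27 and the others −0.97, 1.47 and −2.50, so both orders were reversed in pair 1. Without RNA Torin 1 replicate 3 the medians were −0.65 with and −0.18 without a leader, and −0.88 and −0.15 by presence in oocytes.

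Side by side with the DMSO females, the ribosomal proteins lay below the median of all genes in both groups, by −0.95 and −1.48. The ratio of their summed RPFs to summed RNA had a mean log2 of −0.82 ± 0.69 (SD, n = 3 pairs) in DMSO and −1.88 ± 1.15 in Torin 1, and the pairs of both groups overlapped. Elongation factors were at 0.35 ± 1.23 and −1.34 ± 1.19, initiation factors at −0.89 ± 0.53 and −1.47 ± 1.20, and other TOP orthologs at −0.85 ± 0.62 and −1.60 ± 0.85. Operon classes gave −0.19 ± 0.54 and −0.23 ± 0.51 for downstream genes and 0.63 ± 0.05 and 0.66 ± 0.22 for genes outside operons. Without GSOIDG00008149001 the latter were 0.45 ± 0.27 in DMSO and 0.18 ± 0.44 in Torin 1. Muscle genes were at 1.32 ± 1.79 in DMSO and −1.53 ± 1.39 in Torin 1. Their list comes from the study's ranking by drop in efficiency in Torin 1, so part of this difference is built in. In every class DMSO pair 1 rests on RPF DMSO replicate 1. That library held 22889270 counts, against 874562 and 334447 in RPF DMSO replicates 2 and 3. For ribosomal proteins DMSO pair 1 was the highest, at −0.05. Torin 1 pair 3, at −0.85, lay above the other DMSO pairs. In DMSO females edgeR called 990 genes higher and 176 lower in RPFs at an adjusted p under 0.05. Without that library it called 1007 and 1879. The difference between the ratios in Torin 1 and in DMSO was tested as the assay-by-treatment term of an edgeR fit to the 12 libraries. It called 0 genes higher and 0 lower at an adjusted p under 0.05, against 30 (0.206%) and 1093 (7.5%) at unadjusted p below 0.05. DESeq2 called 1 higher and 144 lower. Without RPF DMSO replicate 1, which RNA Torin 1 replicate 3 resembled, edgeR had 167 higher and 327 lower at unadjusted p below 0.05. The median difference of all genes was −0.46 with 12 libraries and 0.17 without 4 in doubt. These were RPF DMSO replicate 1, RNA DMSO replicate 2 and RNA Torin 1 replicates 2 and 3. Among the ribosomal proteins 2 of 72 were lower at an unadjusted p in the edgeR fit of 12 libraries, RPL4 and RPS24, and none was higher. The RNA of replicate 2 was nearly the same library in both treatments, so that pair 2 compares RPFs alone.

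**Figure D5:**
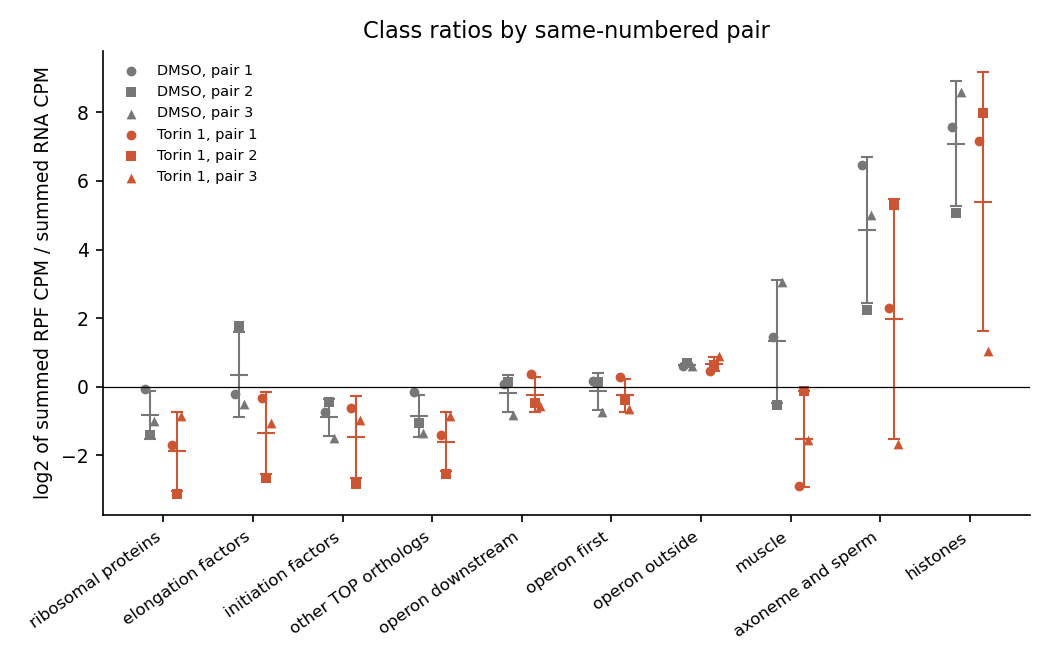
Log2 of summed RPFs over summed RNA, both scaled by TMM, (vertical axis) for 10 gene classes in DMSO (grey) and Torin 1 (red) females, with 1 symbol per same-numbered pair and bars for the mean and SD of 3 pairs. The Torin 1 pairs of ribosomal proteins lie at −1.69, −3.12 and −0.85 and overlap the DMSO pairs, which reach from −1.40 to −0.05. The highest DMSO pair, pair 1, rests on RPF DMSO replicate 1, the deepest RPF library. The bars are widest for histones and for axoneme and sperm genes. These lists and the muscle list come from the study's ranking by drop in efficiency, so their difference from DMSO is partly built in.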

How the data were processed

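Total RNA and RPFs of day 6 females, 3 replicates of each in Torin 1, were compared. The authors clipped adapters, removed rRNA and tRNA reads with Bowtie2 2.1.0, mapped to the reference genome with TopHat2 2.0.13 and Genoscope models, and deposited raw counts per gene from featureCounts. Strand setting is not given in the sources used here. Gene positions, the other values used, come from the deposited annotation.

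Genes with at least 100 reads over 12 libraries were tested in R 4.3.3 with edgeR 4.0.16 (TMM, quasi-likelihood F-test on the 6 libraries, Benjamini-Hochberg over 14574 genes, threshold 0.05), checked on simulated data. Alternatives were DESeq2 1.42.0, library totals, 2 other filters, the replicate block and libraries left out. RPM were computed on library totals. The block was used because same-numbered libraries share a collection of animals by the study's methods, and the unblocked fits leave this pairing out. Correlations of their deviations were 0.18, −0.12 and 0.14 in pairs 1, 2 and 3. RNA Torin 1 replicates 2 and 3 are in doubt, and so is the pairing in those blocks. Where the labels hold, all p-values measure the spread between these pooled collections. The study's package babel was not available.

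Genes named were the 4 most read per orthology list (or all, where it held up to 6), the 3 most read per described list, and per direction 15 described genes and 2 by identifier with the largest log2 ratio, a mean count of at least 20 and one sign in 3 pairs, plus the 2 genes with the most RPF reads. As no gene passed the threshold, an unadjusted p was used for the ends, chosen after seeing the data. Only 3 described genes were met in the higher direction. Members and lists were chosen with earlier results of these data known. Of 17212 genes 17113 had a gene model. Some genes that the rule names are not reported here.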

Additional observations from a re-analysis of the deposited data

Results flagged for a closer look

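Transposon proteins had a summed RPF to RNA ratio below 1 in all 3 Torin 1 pairs (log2 of −0.83, −0.21 and −0.41) and above 1 in all 3 DMSO pairs (0.76, 0.94 and 3.19). The mean log2 difference was −2.11 and was not tested, and the list holds 14 genes with few RPF reads. These genes come from the study's ranking by drop in efficiency in Torin 1, so the direction is partly built in. GSOIDG00007171001 had no RPF read in any Torin 1 library and a mean of 27.6 RPM in the RPFs of DMSO females, with 77.5 RPM in replicate 1 and only 2 and 1 counts in replicates 2 and 3. Its RNA was 55.8 RPM in RNA Torin 1 replicate 3 and at most 1.53 RPM in every other RNA library. In the edgeR fit of all 12 libraries no gene passed the Torin 1 against DMSO test at an adjusted p under 0.05. At unadjusted p below 0.05, 30 were higher and 1093 lower, or 167 and 327 without RPF DMSO replicate 1. DESeq2 called 1 higher and 144 lower at an adjusted p under 0.05.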

How the results depend on the processing

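The count of 0 genes called by edgeR with all 6 libraries was the result most open to the processing. The replicate block was used because same-numbered RNA and RPF libraries are described as sharing a collection of animals. With it 100 genes were higher and 6 lower, and the block without RNA Torin 1 replicate 3 gave 216 and 1. DESeq2 gave 83 and 65, no filter on the read sum gave 3 higher, and leaving out both RNA libraries in doubt gave 729 and 378. Over single libraries or pairs left out the counts ran from 0 to 496 higher and from 0 to 65 lower, and both maxima were reached without RNA Torin 1 replicate 3. For the difference from DMSO, DESeq2 gave 1 higher and 144 lower and leaving out 4 libraries in doubt gave 11 lower, whereas the block gave 0. The causes were not tested.

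Several class medians relative to all genes moved far. Genes outside operons went from 0.18 to −0.070 without both RNA libraries in doubt, where downstream and first genes were both at 0.11, and ran from 0.023 to 0.40 with libraries left out. Histones went to 7.98 without both RNA libraries in doubt and to 8.09 with the block and without RNA replicate 3, and ran from 2.43 to 8.43. Axoneme and sperm genes went from −0.10 to 3.35 without RNA replicate 3, a move just under the SD of 3.49 between pairs, and transposon proteins from −0.18 to −1.15 without RPF replicate 1. The sums over genes outside operons without GSOIDG00008149001 were added after seeing the data, as were the fits without both RNA libraries in doubt, without the 4 libraries in doubt, and with the block and without RNA replicate 3.

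Among named genes the sign turned in 16. With the block GSOIDG00011346001 was at 1.88, GSOIDG00005126001 at 2.44, GSOIDG00010799001 at 0.29, GSOIDG00005160001 at 1.57 and GSOIDG00007856001 at 0.21. With library totals RPS6KA1 was at −0.38, GSOIDG00016318001 at −0.18 and GSOIDG00002712001 at −0.51, the last also at −0.013 by DESeq2. GSOIDG00010481001 was at 0.066 with the filterByExpr filter and at 0.0094 without the 2 genes with the most RPF reads. With libraries left out, the lowest and highest values were −0.54 and 0.56 for RPS6KA1, −1.39 and 1.30 for VIM, −1.51 and 3.48 for GSOIDG00011346001, −1.52 and 3.92 for GSOIDG00005126001, −0.037 and 6.39 for GSOIDG00011951001, −0.88 and 0.38 for GSOIDG00010481001, −0.69 and 3.69 for GSOIDG00011012001, −1.17 and 3.95 for GSOIDG00016318001, −0.58 and 2.08 for GSOIDG00014788001, −2.19 and 0.21 for GSOIDG00008609001, −3.52 and 3.00 for GSOIDG00010799001, −1.95 and 3.32 for GSOIDG00005160001, −0.997 and 1.15 for GSOIDG00002712001, −1.78 and 0.12 for GSOIDG00013875001, −1.07 and 1.19 for GSOIDG00007856001 and −1.71 and 1.76 for GSOIDG00002903001. RPF replicate 3, with 91549 counts, limits every value of a low gene.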
